A study of Mus musculus with 5 samples.

Results

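The cadherins and non-clustered protocadherins were followed across the cell types of the mouse dentate gyrus. They were taken by symbol alone: every listed gene named Cdh or Pcdh with a number, the X-linked Pcdh11x included. This gave 35 of 78334 genes, 23 of them Cdh and 12 Pcdh, and the desmosomal and clustered cadherins, the catenins and other partners were kept as separate lists. No measured value entered that choice. The dentate gyrus is the part of the hippocampus whose granule neurons send axons to hilar mossy cells and CA3 neurons. In 2 wild-type groups the tissue was dissociated into whole cells with collagenase, 14 days after either contextual fear conditioning (CFC-14d) or foot shocks given at random (Random-14d). Nuclei from frozen tissue came from untreated wild-type mice (WT-naive), wild-type mice 14 days after conditioning (WT-CFC) and a mutant group 14 days after conditioning (KO-CFC), whose title gives a Csf2rb2 knockout and whose genotype tag gives Csf2rb3. Each group was 10 mice and 1 library, with no separation by animal, so no difference between groups could be tested. Strain and age are not given in the sources used here.

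Cadherins are single-pass membrane proteins that bind cells to each other when calcium is present. The classical members, such as N-cadherin (Cdh2) and VE-cadherin (Cdh5), tie this contact to the actin skeleton through catenins, and cells with different cadherins tend to sort apart. Non-clustered protocadherins share the extracellular repeats but lack the catenin-binding tail, and in brain they take part in axon growth, synapse formation and the turnover of contacts. In hippocampus, Cdh9 is known from mouse work on the synapse between dentate granule axons and CA3 neurons.

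The libraries held 30515 to 32827 barcodes from cells and 8395 to 13213 from nuclei, with medians of 1997 to 3988 UMIs, each UMI standing for a captured RNA molecule. Haemoglobin genes made up 5.34% of CFC-14d and 10.7% of Random-14d UMIs. Barcodes shared between libraries of one preparation numbered 25 to 282. Clusters were named only from markers, as "like" a type, and the members and related lists were left out of the genes used for clustering. The labelled tissue held its defining types, with 1196 to 1815 granule-like and 244 to 595 mossy-like nuclei, but the cell libraries had no class of mature neurons and held 5417 to 6584 choroid plexus-like cells. CA3 or CA2-like nuclei numbered 2711 in WT-naive and 2300 in WT-CFC. No KO-CFC cluster met the naming limits for that class, and 2 clusters nearest to it are given below without the name. Csf2rb2 stood at 96.1 CPM (counts scaled to 1000000 UMIs of the class) in mossy-like nuclei of WT-naive, 116 in WT-CFC and 62.5 (95% interval 52.6 to 73.7) in KO-CFC. Its RNA was thus present in the library labelled KO-CFC. Which part of the gene was deleted is not given, so counts at the 3′ end do not by themselves check the genotype.

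Levels below are CPM of UMIs summed over a class. All intervals are exact 95% Poisson or binomial intervals that cover counting error only, and a class sum cannot tell fewer expressing cells from less RNA per cell. Of the 35 members, 18 reached 100 counts in a class of a cell library and 26 in a class of a nuclei library; 15 did so in both, 3 in cells alone and 11 in nuclei alone. Cdh1, Cdh15, Cdh16, Cdh17, Cdh26 and Pcdh12 reached it in neither. Cdh1 encodes the E-cadherin of most epithelia, yet it stayed at 0.169 and 0.111 CPM in choroid plexus-like cells. Since genes differ in length and in how well the 3′ assay captures them, each gene is compared between classes and not with other genes.

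A gene was said to have a leading class when the same class was highest in every library in which that class was named, at least 2-fold above the next, with at least 50 counts. In cells this held for 5 of 20 members that could meet it, 25% beside 6.79% of all genes not used for clustering. In nuclei it held for 4 of 26, 15.4% beside 1.99%. Over all genes, those used for clustering included, the shares were 11.8% and 3.38%. The members were left out of clustering however variable they were, whereas most other genes left out were the less variable ones. The 6.79% and 1.99% are therefore not a like-for-like measure for the members. The 9 leading classes were vascular, astrocytic, oligodendroglial or microglial, and no member had a neuronal leading class. The count limit applied to the highest class alone, so a class of few nuclei could block a lead. Cdh7 was highest in interneuron-like nuclei of WT-CFC, at 14.8 CPM against 3.68 CPM in the next class. In WT-naive, 54 committed oligodendrocyte precursor-like nuclei had 11.5 CPM, above the interneuron-like 10.4 CPM. In KO-CFC, 29 pericyte-like nuclei had 20.2 CPM, above the interneuron-like 15.1 CPM.

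The promoters of Cdh23 and Pcdh15, which led in a class of nuclei, and of Pcdh8, the granule-neuron gene whose level differed most from wild type in KO-CFC granule-like nuclei, are printed here to show where transcription of these genes starts. They are the 250 bases before the annotated start, from RefSeq on GRCm38.p6, an older build than the one counted. Capitals mark 1 motif in each: AGGAAG, the core bound by ETS factors, read on the other strand as CTTCCT, in Cdh23 at chr10:60696491-60696740 (minus strand), and the TATA box TATAAA in Pcdh15 at chr10:73821617-73821866 (plus strand) and in Pcdh8 at chr14:79771313-79771562 (minus strand).
Cdh23: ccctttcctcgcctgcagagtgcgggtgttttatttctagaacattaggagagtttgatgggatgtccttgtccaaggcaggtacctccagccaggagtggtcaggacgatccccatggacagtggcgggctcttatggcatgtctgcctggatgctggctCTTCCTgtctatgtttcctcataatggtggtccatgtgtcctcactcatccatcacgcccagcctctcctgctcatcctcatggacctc
Pcdh15: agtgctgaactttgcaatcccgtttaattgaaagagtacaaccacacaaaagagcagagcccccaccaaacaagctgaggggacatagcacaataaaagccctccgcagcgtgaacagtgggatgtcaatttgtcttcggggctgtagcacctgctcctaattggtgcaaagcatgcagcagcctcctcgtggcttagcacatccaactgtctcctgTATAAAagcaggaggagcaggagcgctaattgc
Pcdh8: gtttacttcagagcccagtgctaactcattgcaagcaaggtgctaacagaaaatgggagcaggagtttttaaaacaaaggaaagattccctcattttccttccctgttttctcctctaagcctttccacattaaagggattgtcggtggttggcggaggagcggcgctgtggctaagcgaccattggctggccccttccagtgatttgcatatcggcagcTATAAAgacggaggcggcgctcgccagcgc
The TATA box ended 27 bases before the start of Pcdh15 and 24 bases before that of Pcdh8. On either strand, TATAAA was found in 2 of the 22 members counted and in 12.4% of 32851 promoters. AGGAAG was found in 8 of these 22 members and in 29.5% of promoters. The rest of the 35 members were left out of this count, so the shares are not a like-for-like comparison. TATAAA and AGGAAG were among 15 motifs searched, and those shown were chosen after the matches were seen. A match describes letters and does not show that a factor binds.

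Among vascular cells, Cdh5, the adherens junction cadherin of endothelium, stood at 357 CPM (338 to 376) in endothelial-like cells of CFC-14d and 348 CPM (330 to 367) in Random-14d. The next class was fibroblast-like, at 45.2 and 41.0 CPM. After each cell was thinned to 1000 UMIs, 30.1% of endothelial-like cells in CFC-14d and 28.0% in Random-14d had a Cdh5 UMI, against 56.6% and 50.8% unthinned. The same thinned share was 0.124% and 0.200% in microglia-like cells, a type that should lack the gene, at median depths of 2200 and 2019 UMIs in endothelial-like and 2356 and 2019 in microglia-like cells entering the thinning. Endothelial-like nuclei were few, 50 in WT-naive and 55 in WT-CFC, and gave Cdh5 at 144 CPM (95.1 to 210) and 110 CPM (74.5 to 158).

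Within the endothelial-like cells, the members divided in the same way in both libraries. One cluster in each was led by Plvap, Igfbp3, Esm1 and Kdr, of which Plvap forms the diaphragms of fenestrated vessels, and the main other cluster by Cldn5, Flt1 and Ly6c1. Pcdh17 stood at 117 CPM in the Plvap cluster of CFC-14d and 150 CPM (150.5 before rounding) in that of Random-14d, but at 9.86 and 8.57 CPM in the Cldn5 clusters. Pcdh12, an endothelial protocadherin also called VE-cadherin-2, followed it with 61.8 and 51.9 CPM against 7.62 and 11.4 CPM. Cdh5 itself was 541 and 532 CPM in the Plvap clusters and 315 and 341 CPM in the Cldn5 clusters. The reverse order held for Cdh13, or T-cadherin, which is anchored by a lipid and has no intracellular tail. It stood at 62.3 and 53.8 CPM in the Cldn5 clusters and at 3.37 and 5.19 CPM in the Plvap clusters, and as a whole the endothelial-like class led all others for it, with 38.8 and 36.2 CPM. Pcdh19, the gene of an X-linked epilepsy, was also higher in the Cldn5 clusters, at 40.3 and 46.2 CPM against 4.497 and 6.49 CPM. The counts behind the Plvap clusters were small for Cdh13 (3 and 4) and Pcdh19 (4 and 5).

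Mural cells had their own set. Pcdh18 led in pericyte-like cells at 237 CPM (214 to 263) in CFC-14d and 301 CPM (278 to 326) in Random-14d, and smooth muscle-like cells came next at 34.8 and 55.6 CPM. Pericyte-like nuclei gave 259, 230 and 60.5 CPM in WT-naive, WT-CFC and KO-CFC, from 10, 19 and 3 counts. A Pcdh18 UMI was seen in 21.9% and 28.5% of thinned pericyte-like cells and in 0.338% and 0.572% of endothelial-like cells. N-cadherin, which pericytes are known to use to hold endothelium, stood at 170 and 216 CPM in pericyte-like cells, beside 198 and 163 CPM in astrocyte-like cells, so neither class led in both libraries. Pcdh19 was 60.6 and 85.2 CPM and Pcdh1 49.4 and 57.6 CPM in pericyte-like cells, near the endothelial-like levels of 35.6 and 44.0 CPM for Pcdh19 and 60.2 and 51.2 CPM for Pcdh1. Among cells, Cdh6 was highest in smooth muscle-like cells, at 82.2 CPM (61.4 to 108) and 122 CPM (76.6 to 185), on 52 and 22 counts. Among nuclei, Cdh6 was highest in oligodendrocyte precursor-like nuclei, at 149, 117 and 141 CPM in WT-naive, WT-CFC and KO-CFC.

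Choroid plexus-like epithelial cells were poor in members. Cdh3, the P-cadherin of several epithelia, was highest there in both cell libraries but reached only 24.0 CPM (22.7 to 25.4) and 20.1 CPM (18.9 to 21.4). Cdh18 stood at 16.1 and 14.1 CPM and Pcdh7 at 35.0 and 25.8 CPM. The 22 choroid plexus-like nuclei of WT-naive held Cdh3 at 134 CPM (71.1 to 228) and Cdh18 at 339 CPM, on 13 and 33 counts. In every other named class of nuclei Cdh3 was at most 4.02 CPM. The summed level of all 35 members was 116 and 84.3 CPM in choroid plexus-like cells, against 2226 and 1779 CPM in astrocyte-like cells.

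**Figure D1:**
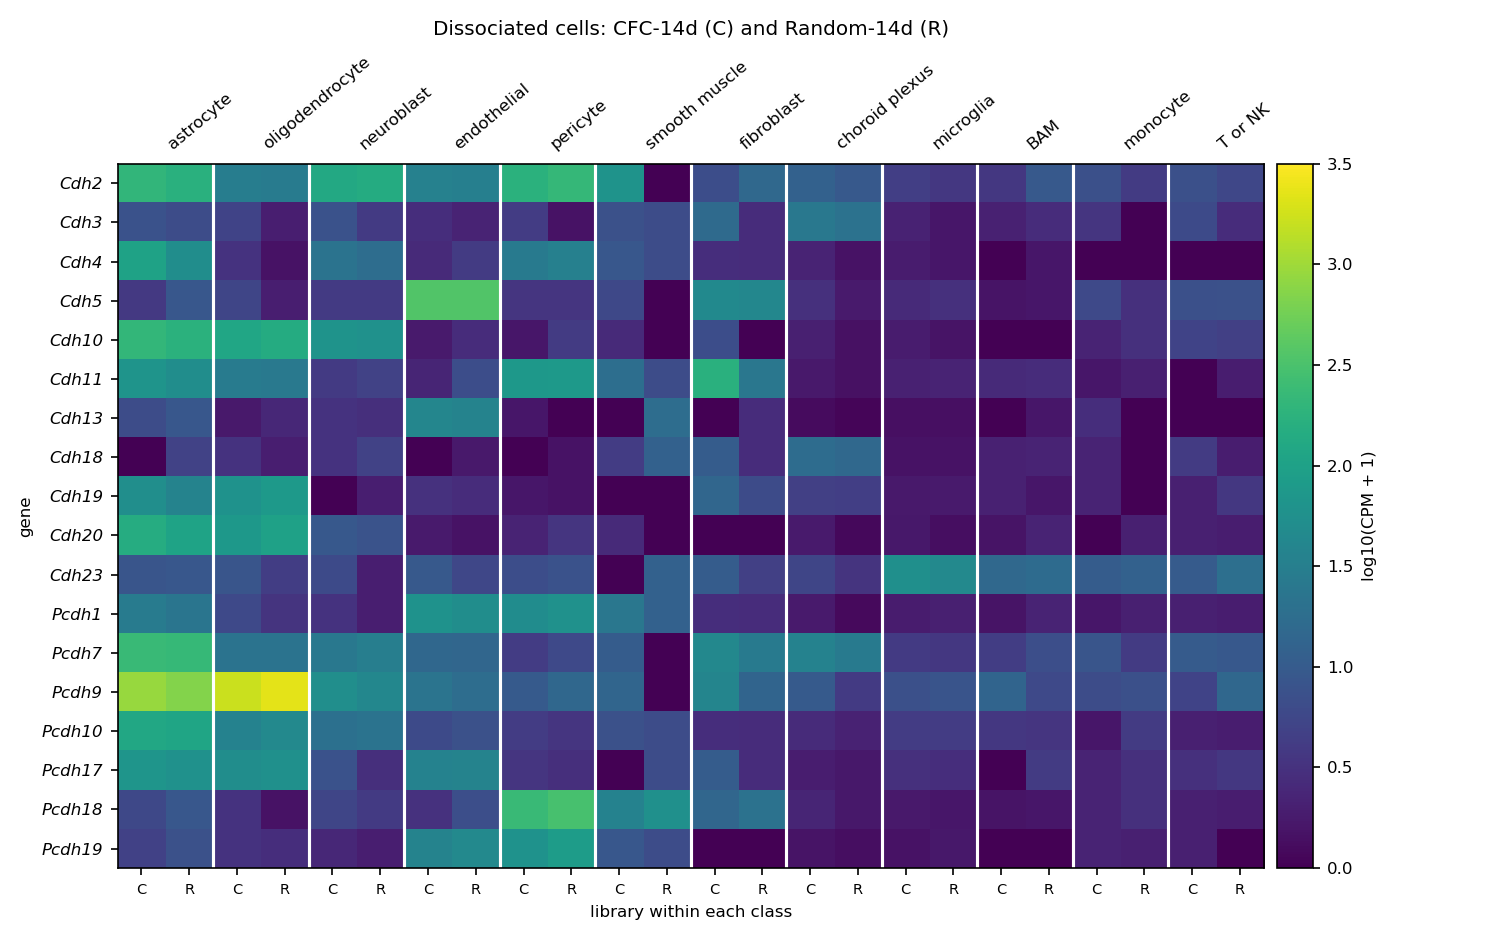
Level of the 18 members with at least 100 counts in a class of a cell library, as log10(CPM + 1) in colour, for 12 classes (columns, each split into CFC-14d, C, and Random-14d, R). Cdh5 stands out in endothelial-like, Pcdh18 in pericyte-like and Pcdh9 in oligodendrocyte-like cells, and the choroid plexus and immune columns are dark.

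Microglia held 1 member far above the rest of the nuclei. Cdh23, known with Pcdh15 as part of the tip link of inner-ear hair cells, stood in microglia-like nuclei at 387 CPM (330 to 450) in WT-naive, 386 CPM (332 to 447) after conditioning (WT-CFC), while KO-CFC had 296 CPM (262 to 334). The next class was mossy-like at 28.0, 32.7 and 52.7 CPM. In thinned nuclei, 31.5%, 30.3% and 25.1% of microglia-like nuclei had a Cdh23 UMI, against 2.52%, 2.75% and 4.12% of mossy-like nuclei. In cells Cdh23 stood at 54.0 CPM (50.8 to 57.4) and 44.1 CPM (41.3 to 47.0) in microglia-like cells and 14.2 and 15.7 CPM in border-associated macrophage-like cells. Cells and nuclei differ in preparation and mice, so the difference between them was not compared.

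Astrocyte-like cells led for Pcdh7, at 233 CPM (205 to 264) and 218 CPM (193 to 245), and for Pcdh10, at 125 and 114 CPM. In nuclei the oligodendrocyte precursors came close for Pcdh10, which stood at 248, 206 and 134 CPM in astrocyte-like and at 194, 177 and 173 CPM in precursor-like nuclei of WT-naive, WT-CFC and KO-CFC. Cdh10 and Cdh20 were also high in astrocyte-like cells, at 206 and 173 CPM and at 146 and 108 CPM, but less than 2-fold above the oligodendrocyte-like levels of Random-14d, 141 CPM for Cdh10 and 98.9 CPM for Cdh20. In CFC-14d oligodendrocyte-like cells had 119 CPM of Cdh10 and 72.9 CPM of Cdh20.

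The astrocyte-like nuclei of WT-naive and KO-CFC fell into matching clusters, while those of WT-CFC formed 1 cluster. One kind was led by Phkg1, Gpc5 and Gja1, and another by Tnc, Slc1a3 and Thrsp, which in the dentate gyrus are also known from the radial-glia-like stem cells. Cdh4, or R-cadherin, stood at 514 CPM in the Tnc cluster of WT-naive and 286 CPM in that of KO-CFC, against 99.6 and 71.3 CPM in the Gpc5 clusters. Cdh20 showed the opposite order, at 7.08 and 32.7 CPM in the Tnc clusters and 308 and 203 CPM in the Gpc5 clusters. Pcdh7 followed Cdh20, with 99.1 and 69.5 CPM against 708 and 464 CPM. Cdh4 on one side and Cdh20 and Pcdh7 on the other thus had opposite orders in both libraries.

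The classes of the oligodendrocyte line differed in their members. Pcdh15, the partner of Cdh23 in the tip link, reached 3095 CPM (2971 to 3223) in precursor-like nuclei of WT-naive, 3241 CPM (3134 to 3350) after conditioning in wild type, while KO-CFC had 2472 CPM (2308 to 2645). Neuroblast-like nuclei came next, at 790, 651 and 819 CPM. Among thinned nuclei, 91.6%, 93.9% and 86.2% of precursor-like nuclei had a Pcdh15 UMI, and 3.19%, 1.08% and 2.92% of microglia-like nuclei. Pcdh11x also led in the precursors, at 806, 670 and 826 CPM, with oligodendrocyte-like nuclei next in WT-naive at 290 CPM and WT-CFC at 323 CPM.

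Committed precursors, the step before myelination, showed another set in all 3 nuclei libraries, on 54, 27 and 48 nuclei. Pcdh17 led there at 1060 CPM (913 to 1225), 1084 CPM (887 to 1311) and 734 CPM (588 to 906), against precursor levels of 249, 277 and 265 CPM. In WT-CFC the class next highest for Pcdh17 was granule-like nuclei, at 311 CPM. Pcdh7 stood at 2028, 2505 and 1325 CPM, against 840, 814 and 791 CPM in the precursors, which missed 2-fold only in KO-CFC. Cdh20 stood at 807 and 1196 CPM in WT-naive and WT-CFC and at 649.95 CPM in KO-CFC, against 413, 425 and 267 CPM in the precursors. Pcdh15 was only at 271, 225 and 92.9 CPM. In the mature class, Pcdh9 was the highest of all its classes, at 9720 and 8591 CPM in WT-naive and WT-CFC and 6065 CPM in KO-CFC, and in cells at 1655 and 2284 CPM. Pcdh9 was also broad, with 495 to 5065 CPM in every other neural class of nuclei, so it had no leading class.

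Mature neurons were seen in nuclei alone, and there members overlapped. Granule-like and CA3 or CA2-like nuclei both carried Cdh9, at 634, 564 and 617 CPM in granule-like nuclei and at 659 and 542.5 CPM in CA3 or CA2-like nuclei of WT-naive and WT-CFC. The mossy-like level was 208, 178 and 145 CPM. Cdh8 was high in granule-like nuclei at 648, 629 and 378 CPM, and Cdh12 at 399, 333 and 344 CPM, against 83.2, 90.0 and 62.02 CPM of Cdh12 in mossy-like nuclei. Cdh24 had its highest level in CA3 or CA2-like nuclei, at 57.0 CPM (54.1 to 59.9) and 55.6 CPM (52.7 to 58.6), and 6.20% and 4.92% of these nuclei had a UMI after thinning, against 0.421% and 0.787% of granule-like nuclei. The next classes for Cdh24 were cycling progenitor-like nuclei of WT-naive at 29.0 CPM, less than 2-fold below, and endothelial-like nuclei of WT-CFC at 25.7 CPM on 7 counts.

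Mossy-like nuclei had the most Cdh13 of the neurons, at 553, 542 and 646 CPM, beside 642, 698 and 509 CPM in oligodendrocyte precursor-like nuclei. Granule-like nuclei stood between, at 288, 290 and 329 CPM, and the CA3 or CA2-like class was low, at 36.5 and 36.6 CPM. That low level hid 1 cluster led by Vgll3, Cpne7 and Col6a1, which held Cdh13 at 289 CPM in WT-naive and 218 CPM in WT-CFC, while the other clusters of the class stood at 10.9 and 17.7 CPM in WT-naive and 12.3 CPM in WT-CFC. In KO-CFC, the 2 unnamed clusters nearest to this class showed the same contrast: the 1 with Cpne7 and Vgll3 among its leading genes had Cdh13 at 167 CPM and the other at 22.4 CPM. The same 2 clusters had Cdh9 at 390.1 and 504 CPM and Cdh24 at 31.6 and 43.1 CPM.

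GABAergic interneuron-like nuclei were divided by several members. Clusters led by Hs3st5, Unc5d and Reln were found in all 3 libraries and held Pcdh7 at 1388 CPM in WT-naive, 1039 CPM in WT-CFC and 563 CPM in KO-CFC. Clusters led by Adarb2 and Col19a1 held it at 374, 492 and 325 CPM. Cdh9 was 482, 395 and 353 CPM in the first kind and 71.7, 77.4 and 60.4 CPM in the second. Pcdh10 had the opposite order, at 142, 139 and 112 CPM in the Adarb2 clusters, and Cdh11 was 475, 583 and 321 CPM there. Another kind, led by Pde11a and Mctp2 and found in WT-naive and WT-CFC, had Cdh12 at 290.1 and 293 CPM but Cdh8 at only 68.6 and 69.2 CPM.

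**Figure D2:**
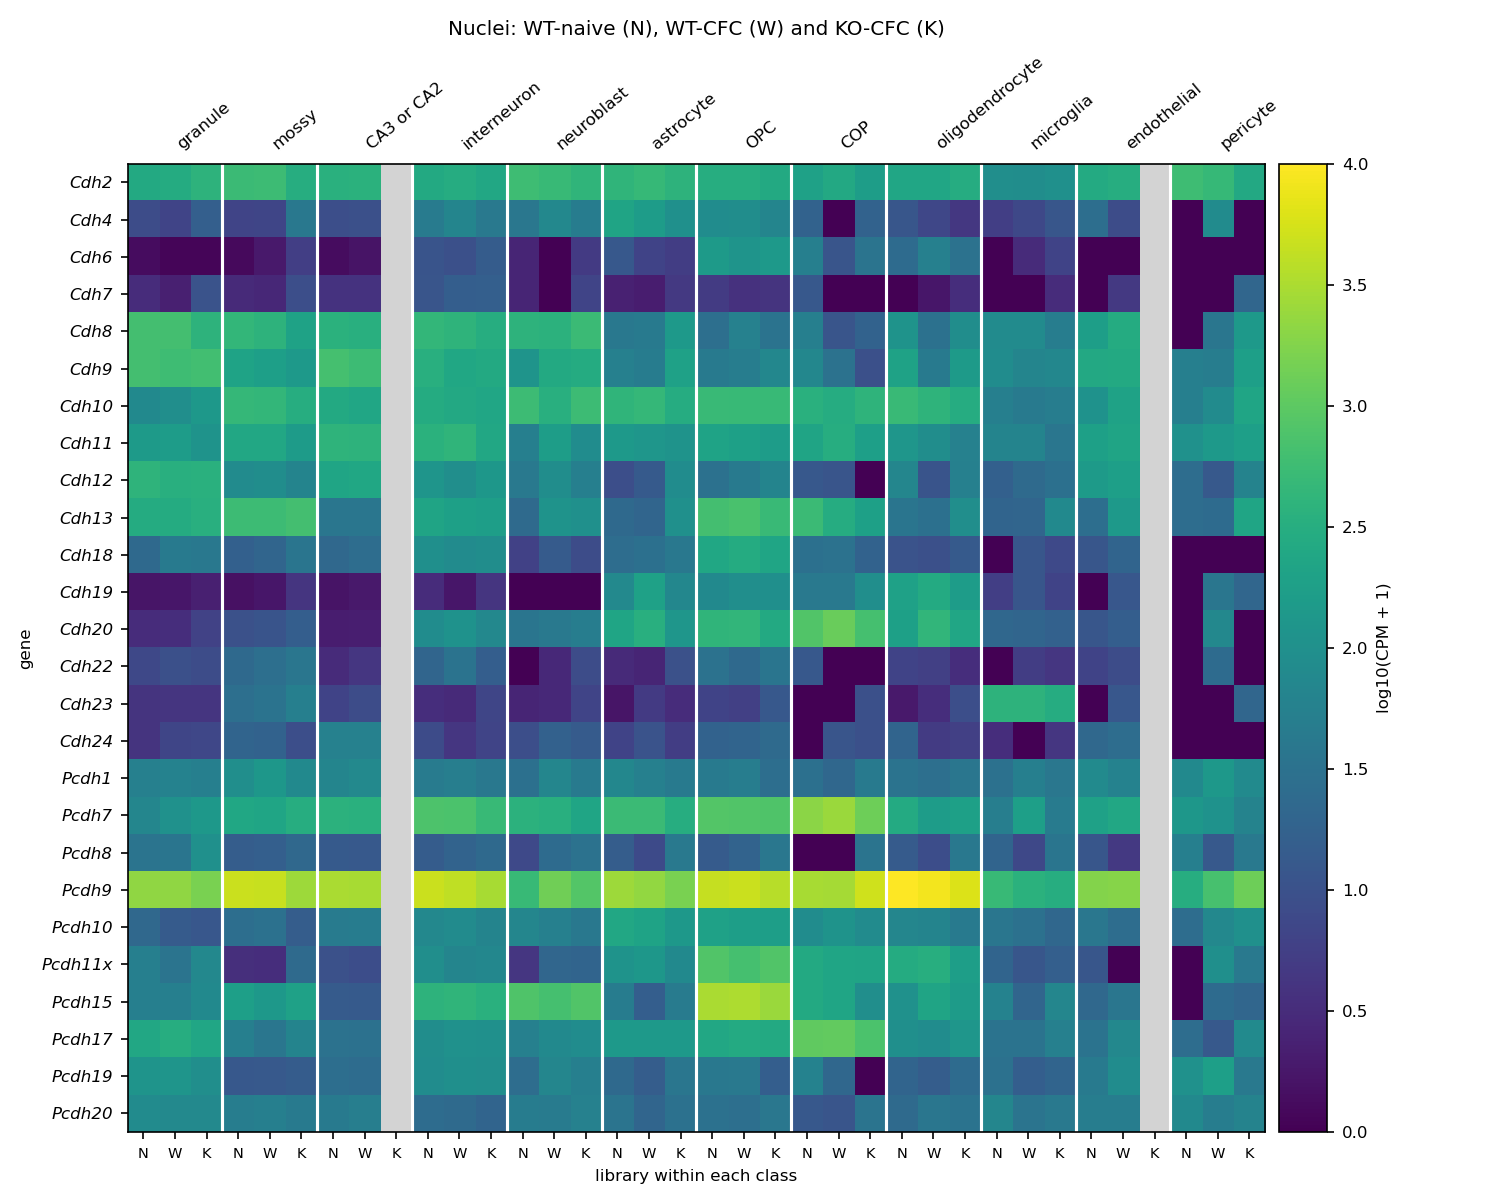
Level of the 26 members with at least 100 counts in a class of a nuclei library, as log10(CPM + 1) in colour, for 12 classes split into WT-naive (N), WT-CFC (W) and KO-CFC (K); grey marks classes not named in KO-CFC. Pcdh15 and Pcdh11x are bright in precursor-like (OPC), Pcdh17 in committed precursor-like (COP) and Cdh23 in microglia-like nuclei.

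**Figure D3:**
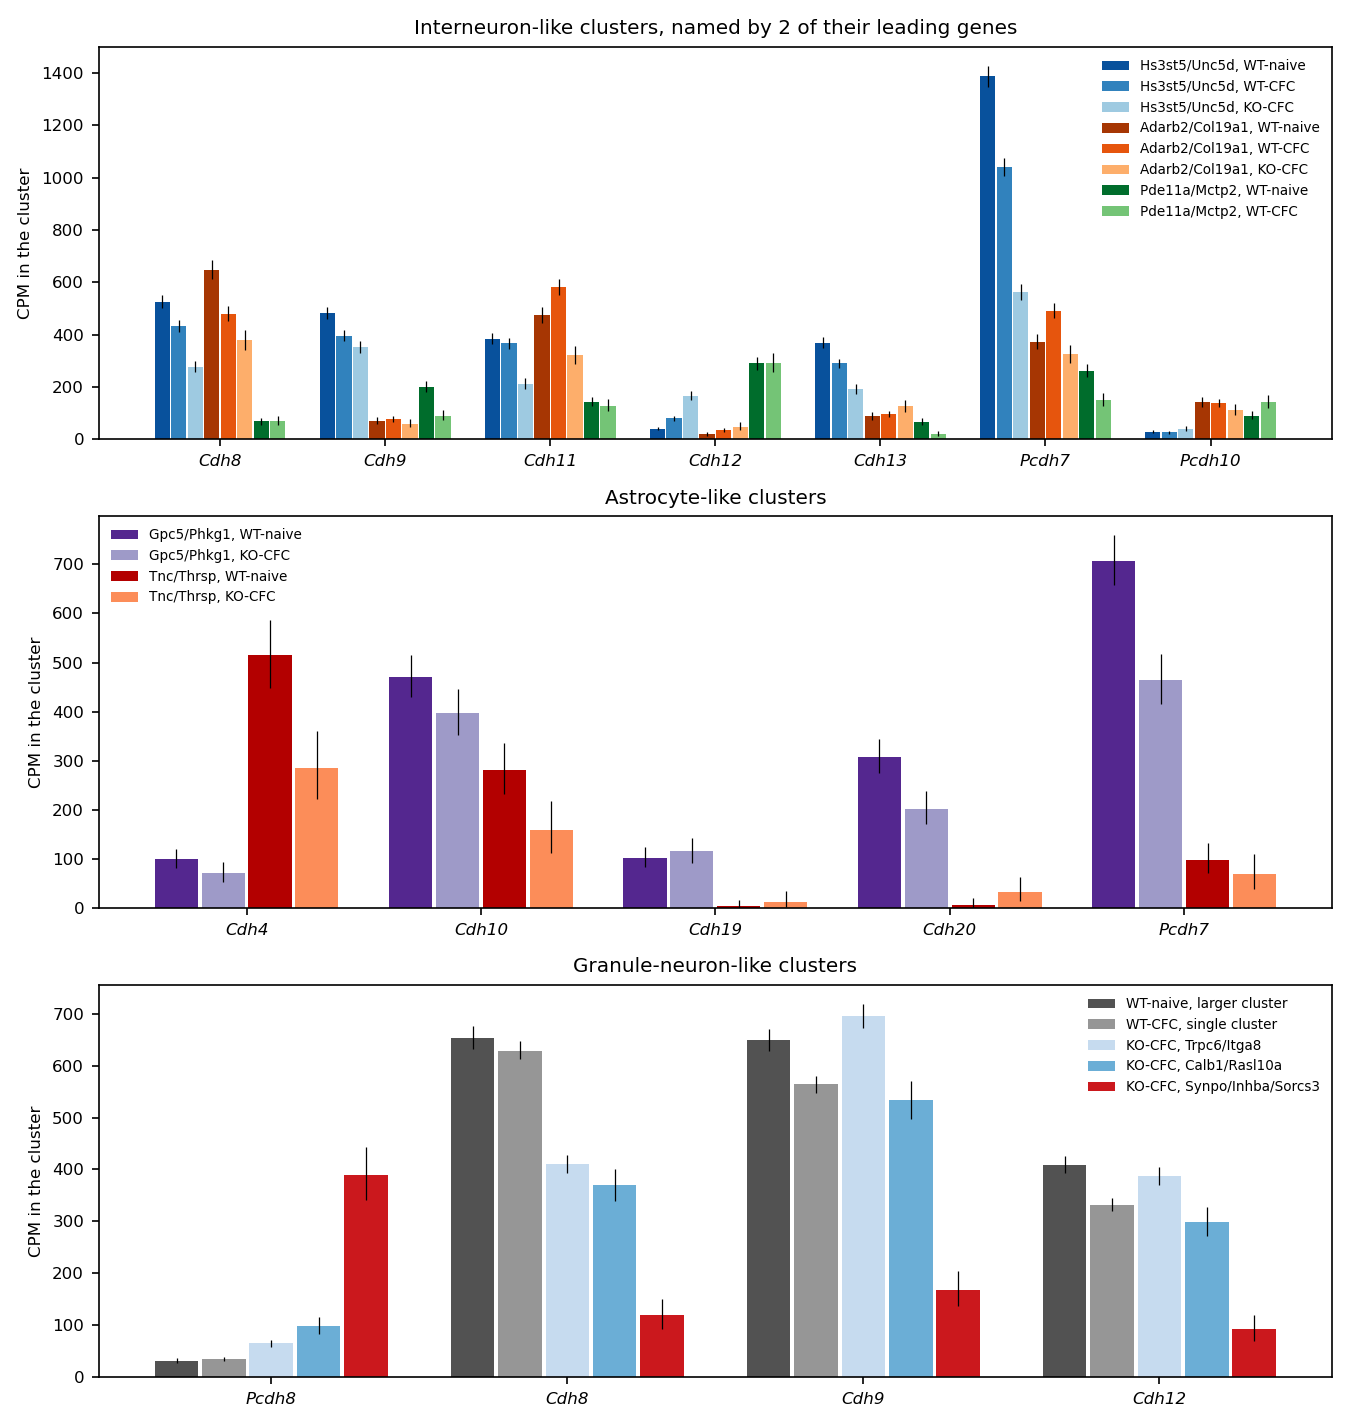
CPM of chosen members in interneuron-like, astrocyte-like and granule-like clusters of nuclei, with bars from 0 and exact 95% Poisson intervals as lines. Pcdh7 and Cdh9 are high in the Hs3st5/Unc5d clusters, Cdh4 in the Tnc/Thrsp clusters, and Pcdh8 in 1 granule-like cluster of KO-CFC.

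Young neurons carried N-cadherin and Cdh10, but neither was particular to them. Neuroblast-like nuclei had Cdh2 at 579, 489 and 420.5 CPM and Cdh10 at 549, 333 and 555 CPM, beside Cdh10 in granule-like nuclei at 79.2, 92.2 and 134 CPM. In WT-CFC, Cdh10 was higher in oligodendrocyte precursor-like (495 CPM) and astrocyte-like nuclei (459 CPM), and Cdh2 in mossy-like nuclei (561 CPM). Oligodendrocyte-like nuclei of WT-naive had Cdh10 at 522 CPM. Neuroblast-like cells had Cdh2 at 130.5 and 141 CPM and Cdh10 at 61.9 and 57.9 CPM. Cdh9 and Cdh12, high in granule-like nuclei, were lower in neuroblast-like nuclei, Cdh9 at 118, 270 and 286 CPM and Cdh12 at 41.0, 90.1 and 52.3 CPM.

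Libraries were then compared within a class. A gene-class pair was called when the class sums differed at least 1.5-fold and the counting interval of the ratio left out no difference, among genes with at least 100 counts over both libraries and classes with at least 100 barcodes in each. With 1 library per group, a called pair describes these libraries and carries no p-value. In CFC-14d against Random-14d, 6 of 54 member pairs were called, all higher in CFC-14d, which is 11.1% beside 8.07% of 75800 pairs of all genes. Higher calls made up 6.36% and lower calls 1.71% of all pairs.

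After conditioning, Cdh4 in astrocyte-like cells stood at 103 CPM, against 51.5 CPM after random shocks, a log2 ratio of 1.001 (0.55 to 1.47) on 111 and 65 counts. Cdh11, the cadherin of mesenchymal cells, stood at 164 CPM in fibroblast-like cells of CFC-14d and 23.2 CPM in those of Random-14d, a log2 ratio of 2.78 (1.97 to 3.79) on 87 and 13 counts. Each fibroblast-like class was a single cluster of 195 and 217 cells, with 8 of 8 fibroblast markers detected and summing to 15690 and 19310 CPM, and no other member had enough counts there. The other 4 calls were low levels in choroid plexus-like cells: Pcdh9 at 8.73 against 2.97 CPM, Cdh5 at 2.10 against 0.817 CPM, Cdh23 at 4.43 against 2.32 CPM and Pcdh18 at 1.30 against 0.687 CPM. Markers of other classes were also higher in choroid plexus-like cells of CFC-14d. Their sums were 156.5 against 81.0 CPM for oligodendrocytes (9 of 9 markers with counts), 190 against 127 CPM for endothelial cells (10 of 10), 2403 against 1439 CPM for microglia (9 of 9) and 105 against 62.1 CPM for pericytes (7 of 7). The part of these markers in the 4 calls was not tested. A cluster of 4458 choroid plexus-like barcodes in CFC-14d had no counterpart in Random-14d. It held Pcdh9 at 48.4 CPM and Cdh5 at 13.04 CPM, and without it 2 member pairs were called, Cdh4 and Cdh11. By class, the calls were 1 of 10 members in astrocyte-like (12.2% of all genes), 1 of 1 in fibroblast-like (7.5%) and 4 of 10 in choroid plexus-like cells (12.9%). No member was called among 9 in endothelial-like (2.58%), 6 in pericyte-like (1.65%), 10 in oligodendrocyte-like (10.3%), 5 in microglia-like (1.81%) and 3 in neuroblast-like cells (3.68%). Cdh5 and Pcdh18, which lead in vessels, are among these uncalled pairs.

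Conditioned and naive wild-type nuclei differed in 17 of 139 member pairs, 11 higher and 6 lower in WT-CFC. That is 12.2% beside 7.52% of 70103 pairs of all genes, of which 4.29% were higher and 3.24% lower. Mossy-like and precursor-like nuclei had no called member, 0 of 21 and 0 of 15, beside 5.7% and 6.41% of all genes. In CA3 or CA2-like nuclei 1 of 23 was called (5.01% of all genes), Cdh22, at 2.08 CPM in WT-naive and 3.36 CPM in WT-CFC. Cdh22 was also higher in interneuron-like nuclei, at 19.0 and 31.9 CPM, the 1 call among 23 members (6.4%).

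In granule-like nuclei, 4 of 19 members were called, beside 3.48% of all genes. Cdh18 stood at 22.3 CPM in WT-naive and 41.3 CPM in WT-CFC, a log2 ratio of 0.89 (0.60 to 1.19). Pcdh7 was also higher after conditioning, at 66.5 and 105 CPM. Pcdh10 was lower, at 21.1 and 13.2 CPM, and so was Pcdh11x, at 51.6 and 33.1 CPM. Cdh9, Cdh12 and Cdh8, which had the most counts in these nuclei, were within 1.5-fold.

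Glial and immature classes gave the larger ratios, with 4 of 8 members called in neuroblast-like (19.8% of all genes), 5 of 13 in oligodendrocyte-like (28%), 1 of 14 in astrocyte-like (9.36%) and 1 of 3 in microglia-like nuclei (9.09%). Neuroblast-like nuclei had Pcdh9 at 495 CPM in WT-naive and 1335 CPM in WT-CFC, Cdh11 at 52.5 and 166 CPM and Cdh9 at 118 and 270.3 CPM, with Cdh10 lower, at 549 and 333 CPM. The neuroblast-like class of WT-CFC included cycling nuclei, with cycling markers summing to 364 CPM against 73.8 CPM in WT-naive, where a separate cluster of 55 nuclei held them. Between WT-naive and WT-CFC the neuroblast markers of the class summed to 1642 and 1111 CPM, the CA3 or CA2 markers to 351 and 520.4 CPM, the interneuron markers to 493 and 607 CPM and the granule neuron markers to 1165 and 1354 CPM. The part of these markers in the ratios was not tested. In astrocyte-like nuclei Cdh19 stood at 75.1 and 191 CPM, a log2 ratio of 1.35 (1.04 to 1.67), and in microglia-like nuclei Pcdh7 at 50.6 and 178 CPM on 22 and 84 counts.

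Of the 5 members called in oligodendrocyte-like nuclei, Cdh20 and Pcdh15 were higher in WT-CFC, at 188 and 426 CPM and at 105 and 214 CPM, and Pcdh7 was lower, at 275 and 161 CPM. The neuronal members Cdh9 and Cdh8 stood at 198 and 43.5 CPM and at 111 and 29.5 CPM. A cluster of 24 nuclei in WT-naive held 191 of its 224 Cdh9 counts, at 704 CPM, and its CA3 or CA2 markers summed to 690 CPM against 123 CPM in the main cluster, where Cdh9 was 38.4 CPM. Granule neuron markers went the other way, at 369 CPM in the 24 nuclei and 2165 CPM in the main cluster. Oligodendrocyte markers summed to 1497 CPM in the 24 nuclei and 11490 CPM in the main cluster. The part of these markers in the ratios was not tested.

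**Figure D4:**
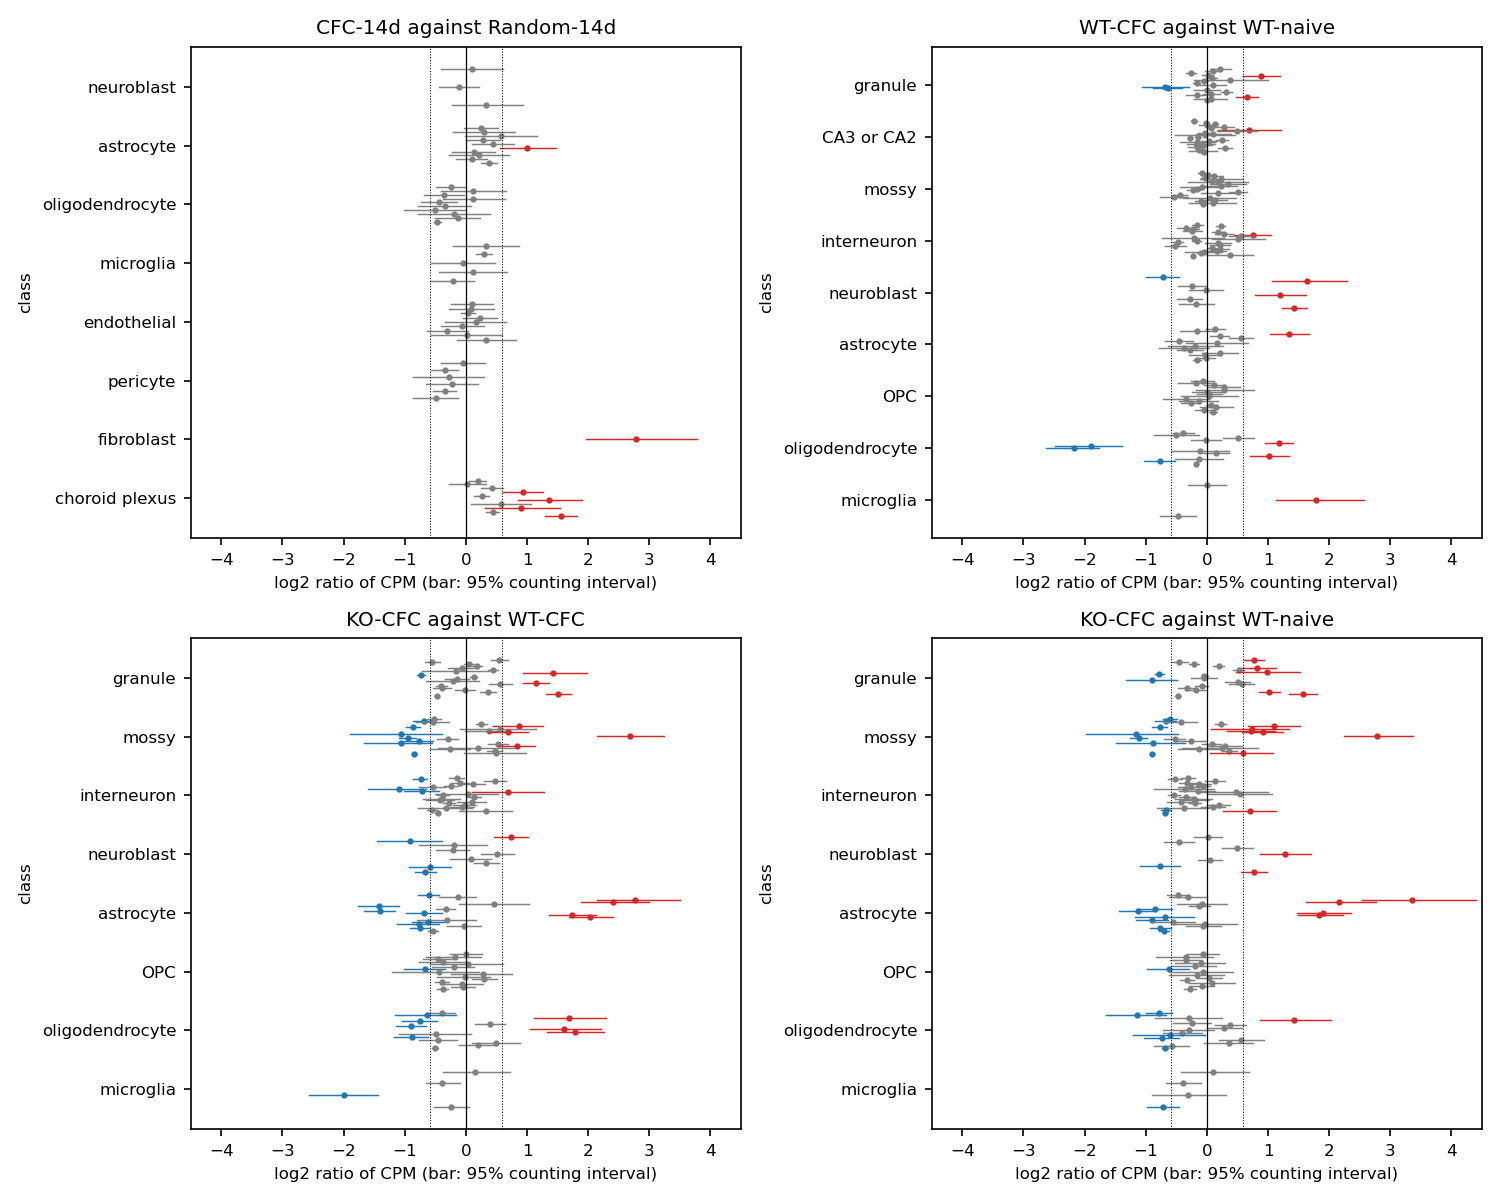
Log2 ratio of CPM for each tested member (point, with its 95% counting interval) by class in the 4 comparisons of libraries; red is called higher and blue called lower in the first-named library, and dotted lines mark 1.5-fold. Calls are most frequent in both comparisons with KO-CFC.

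The library labelled KO-CFC differed more from both wild-type libraries, in the members as in all genes. Against WT-CFC, 43 of 124 member pairs were called, 34.7% beside 26% of 51228 pairs of all genes. Lower calls numbered 27, 21.8% beside 9.45%, and higher calls 16, 12.9% beside 16.5%. Against WT-naive, 44 of 120 were called, 36.7% beside 25.7%, with 25 lower (20.8% beside 7.49%) and 19 higher (15.8% beside 18.2%). The medians were -0.19 in each, beside 0.02 and 0.08 over all tested pairs. Both comparisons share the library labelled KO-CFC, so its levels are given once beside both wild-type levels, always in the order WT-naive, WT-CFC, KO-CFC.

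In granule-like nuclei, 4 of 20 members were called against WT-CFC (22.3% of all genes) and 7 of 19 against WT-naive (19.9%). The largest ratio was that of Pcdh8, also called arcadlin, which neuronal activity induces in hippocampus and which drives the uptake of N-cadherin from synapses. It stood at 33.4 CPM (28.9 to 38.4), 34.9 CPM (31.0 to 39.2) and 99.3 CPM (92.2 to 107), a log2 ratio of 1.51 (1.31 to 1.71) against WT-CFC and 1.57 (1.34 to 1.81) against WT-naive. A cluster of 260 granule-like nuclei in KO-CFC, led by Pdzd2, Car12, Synpo, Acvr1c and Inhba, held it at 389 CPM, and the same cluster had Cdh8, Cdh9 and Cdh12 at 120, 168 and 93.2 CPM. Several of its leading genes, Inhba among them, are known to rise with neuronal activity. Granule neuron markers summed to 2180 CPM in this cluster, against 3047 and 3450 CPM in the other 2 of KO-CFC. Any part of neuronal activity or of cluster make-up in the Pcdh8 level was not tested. Pcdh8 was 65.4 and 98.7 CPM in the other 2 granule-like clusters of KO-CFC, and without the cluster of 260 nuclei the log2 ratios were 1.07 and 1.13, still called. Outside the class, 76 B cell-like nuclei of KO-CFC had Pcdh8 at 48.9 CPM. Over whole libraries, which differ in their share of granule-like nuclei, it stood at 16.2, 17.6 and 42.1 CPM.

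Other granule members moved less. Cdh8 was lower in KO-CFC, at 648, 629 and 378 CPM, with log2 ratios of -0.74 against WT-CFC and -0.78 against WT-naive. Cdh4 was at 7.59, 5.53 and 15.04 CPM, higher by 1.43 and 0.98. Pcdh11x was at 51.6, 33.1 and 73.2 CPM and was called against WT-CFC alone, at 1.15. Pcdh7 (66.5, 105 and 135 CPM), Cdh18 (22.3, 41.3 and 39.5 CPM) and Cdh10 (79.2, 92.2 and 134 CPM) were called higher against WT-naive, at 1.02, 0.82 and 0.76. Pcdh10, at 21.1, 13.2 and 11.3 CPM, was lower there, at -0.90. In median depth the granule-like nuclei had 4454, 5100 and 3414 UMIs.

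In mossy-like nuclei, 11 of 22 members were called against WT-CFC (31.6% of all genes) and 13 of 22 against WT-naive (33.3%). Those of KO-CFC were 2 clusters that differed in the members. The first, of 137 nuclei, was led by Glra3 and Ndst4, which with Csf2rb2 were also the 3 leading genes of the mossy-like cluster in each wild-type library, and the second, of 107 nuclei, by Mageb18, Adam2 and Klhl1. Cdh4 stood at 3.99 CPM in the first and 82.0 CPM in the second, Cdh13 at 422 and 930.3 CPM, and Pcdh9 at 4172 and 552 CPM. An unnamed cluster of 427 nuclei nearest to mossy cells had Cdh4 at 67.2 CPM and Pcdh9 at 1295 CPM. Mossy cell markers summed to 519 CPM in the first cluster, 363 CPM in the second and 338 CPM in the unnamed cluster. In the mossy-like clusters of WT-naive and WT-CFC they summed to 484 and 612 CPM. The part of these markers in the member levels was not tested. Over the class, Cdh4 stood at 5.52, 5.97 and 38.4 CPM, a log2 ratio of 2.68 (2.15 to 3.23) against WT-CFC and 2.79 (2.25 to 3.37) against WT-naive. Each wild-type library held 1 mossy-like cluster, not led by Mageb18 or Adam2.

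Several other mossy members were lower in KO-CFC. Cdh2 stood at 529, 561 and 309 CPM, Cdh8 at 438, 391 and 202 CPM and Pcdh9 at 4800.2, 4617 and 2576 CPM. Without the second cluster the log2 ratios against WT-CFC went from -0.86 to -0.46 for Cdh2, from -0.95 to -0.40 for Cdh8 and from -0.84 to -0.15 for Pcdh9, and none was called. Cdh24 (18.3, 17.3 and 8.03 CPM) and Pcdh10 (26.7, 30.4 and 14.3 CPM) each had a log2 ratio of -1.07 against WT-CFC, on 18 and 32 counts in KO-CFC. Cdh18 (16.0, 18.9 and 34.4 CPM) was higher in both comparisons, by 0.86 against WT-CFC and 1.10 against WT-naive, and Pcdh17 (52.0, 35.9 and 63.8 CPM) against WT-CFC, by 0.83. Pcdh1, at 92.1, 131 and 76.7 CPM, was lower against WT-CFC, at -0.77.

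In astrocyte-like nuclei, 11 of 17 members were called against WT-CFC (31.6% of all genes) and 10 of 17 against WT-naive (27.9%). The 4 members called higher, Cdh12, Cdh9, Cdh13 and Cdh8, were so in both comparisons. Cdh12 stood at 8.12, 12.4 and 85.8 CPM, a log2 ratio of 2.77 (2.14 to 3.504) against WT-CFC and 3.35 (2.54 to 4.39) against WT-naive. Cdh9 stood at 54.1, 47.4 and 195 CPM, Cdh13 at 22.3, 18.9 and 101 CPM and Cdh8 at 38.6, 43.1 and 144 CPM. A cluster of 71 astrocyte-like nuclei held 107 of the 118 Cdh12 counts, 229 of the 268 Cdh9 counts and 166 of the 198 Cdh8 counts of the class. Its granule neuron markers summed to 2534 CPM and its astrocyte markers to 2177 CPM, against 985 and 8798 CPM in the main cluster, where Cdh12 was 11.2 CPM and Cdh9 44.7 CPM. Without that cluster the log2 ratio of Cdh9 was -0.21 against WT-CFC and -0.40 against WT-naive, and that of Cdh8 was -0.36 against WT-CFC.

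The other calls in astrocyte-like nuclei were lower, 7 against WT-CFC and 6 against WT-naive, while Cdh2, at 416, 480.3 and 382 CPM, and Cdh11, at 139, 124 and 113 CPM, were called in neither. The astrocyte markers were lower too, summing over the class to 10680, 12090 and 6307 CPM, and to 8798 and 6021 CPM in the KO-CFC clusters other than that of 71 nuclei. Their part in the lower calls was not tested. Cdh20 stood at 222, 328 and 124 CPM, with log2 ratios of -1.40 and -0.84 against WT-CFC and WT-naive, and Cdh19 at 75.1, 191 and 71.3 CPM, at -1.42 against WT-CFC. Cdh4 stood at 219, 160 and 99.6 CPM, at -0.68 and -1.13, and Pcdh7 at 533, 529 and 314 CPM, at -0.75 and -0.76. Pcdh10, at 248, 206 and 134 CPM, had -0.62 and -0.89, and Pcdh11x, at 114, 132 and 77.1 CPM, was called against WT-CFC alone, at -0.77. Leaving out the cluster of 71 nuclei, Cdh20 against WT-naive came to -0.48, Pcdh7 to -0.54 and -0.55 against WT-CFC and WT-naive, Cdh4 against WT-CFC to -0.34, Pcdh10 to -0.23 and -0.50 against WT-CFC and WT-naive, and Cdh10 against WT-CFC from -0.61 to -0.44, all short of a call.

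In oligodendrocyte-like nuclei, 7 of 14 members were called against WT-CFC (30.8% of all genes) and 6 of 15 against WT-naive (28.4%). Cdh9 stood at 198, 43.5 and 150 CPM (149.9 before rounding), Cdh8 at 111, 29.5 and 90.7 CPM and Cdh13 at 34.5, 28.7 and 93.0 CPM, so that the calls against WT-CFC were 1.78, 1.61 and 1.68 on the log2 scale. A cluster of 106 nuclei held Cdh9 at 300.2 CPM, and the main cluster at 47.0 CPM, with CA3 or CA2 markers summing to 254.5 and 104 CPM. Granule neuron markers summed to 2190 and 1931 CPM in these 2 clusters. They summed to 3047 CPM in the largest granule-like cluster of KO-CFC and to 1392 CPM in its microglia-like nuclei. The part of these neuronal markers in the calls was not tested. Cdh20 at 188, 426 and 229 CPM and Pcdh11x at 290.0, 323 and 174 CPM were both lower against WT-CFC, at -0.89 each, and Cdh19 at -0.76. Against WT-naive, Cdh11 (126, 89.3 and 57.0 CPM) was lower at -1.14 and Cdh10 (522, 398 and 302 CPM) at -0.79. In the precursors 1 of 15 and 1 of 13 members was called (24.1% and 19.5% of all genes), Cdh20, at 413, 425 and 267 CPM.

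Interneuron-like nuclei had 4 and 3 calls among 23 members (18.5% and 22.7% of all genes), neuroblast-like nuclei 4 of 9 and 3 of 7 (23.6% and 22.9%) and microglia-like nuclei 1 of 4 in each (33.3% and 31.6%). Cdh22 in interneuron-like nuclei stood at 19.0, 31.9 and 14.8 CPM, with a log2 ratio of -1.10 against WT-CFC, and Cdh6 at 10.0, 8.59 and 13.8 CPM, at 0.69. Pcdh7 in microglia-like nuclei, at 50.6, 178 and 44.7 CPM, had a log2 ratio of -1.99 (-2.57 to -1.44) against WT-CFC and was not called against WT-naive; its high value was that of WT-CFC. Pcdh9 there, at 502, 361 and 306 CPM, was lower against WT-naive, at -0.71. In neuroblast-like nuclei Cdh11 (52.5, 166 and 87.8 CPM) was lower against WT-CFC at -0.91, and Cdh10 (549, 333 and 555 CPM) higher at 0.74. Against WT-naive, Cdh9 (118, 270.3 and 286 CPM) and Pcdh9 (495, 1335 and 843 CPM) were higher there, at 1.27 and 0.77, and Pcdh7 (377, 335 and 222 CPM) lower at -0.76. Cdh23, the microglial member, was not called in microglia-like nuclei in any of the 3 comparisons.

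The genes that work with the members were read from lists of 8 catenins, 13 sheddases and other partners, 18 other large cadherins and 58 clustered protocadherins; of 9 desmosomal genes only Dsg2 had enough counts, and it was called nowhere. In CFC-14d against Random-14d, catenins were called in 7 of 54 gene-class pairs, all higher, partners in 3 of 60, large cadherins in 1 of 19 and clustered protocadherins in 0 of 8. The shares, 13%, 5%, 5.26% and 0%, stand beside 8.07% of all gene-class pairs called and 6.36% called higher. In WT-CFC against WT-naive the catenins had 2 higher and 3 lower calls among 52 pairs, from Ctnna3 in oligodendrocyte-like nuclei at 0.75 to the same gene in neuroblast-like nuclei at -0.85. Partners had 5 higher and 2 lower among 68, and large cadherins 3 higher and 4 lower among 63. Clustered protocadherins had 11 higher and 0 lower among 55, up to 1.22 for Pcdha12 in CA3 or CA2-like nuclei. The shares called were 9.62%, 10.3%, 11.1% and 20%, beside 7.52% of all gene-class pairs, with 4.29% higher and 3.24% lower. The alpha and gamma isoforms among them share 3′ exons, so which of those isoforms a count belongs to is uncertain.

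Against WT-CFC, KO-CFC had 4 higher and 7 lower catenin calls among 43 pairs, with Ctnnb1, the beta-catenin that binds classical cadherins, lowest in oligodendrocyte-like nuclei. Partners had 2 higher and 12 lower among 53, and Nectin3, an adhesion molecule of the same junctions, was lowest at -1.38 in mossy-like nuclei. Large cadherins had 5 higher and 10 lower among 47, and Clstn2, a synaptic calsyntenin, stood at both ends, 0.95 in astrocyte-like and -1.25 in mossy-like nuclei. Clustered protocadherins had 1 higher and 3 lower among 15. Against WT-naive the same lists had 3 higher and 3 lower of 42, 4 and 7 of 50, 3 and 8 of 47, and 2 and 0 of 10. The shares called, 25.6%, 26.4%, 31.9% and 26.7% against WT-CFC and 14.3%, 22%, 23.4% and 20% against WT-naive, stand beside the 26% and 25.7% of all genes given above.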

How the data were processed

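Single cells or nuclei of 5 libraries were measured with a droplet 3′ kit, per the labels' protocols. The deposited counts are whole UMI counts per gene and barcode, as the authors left them; the submitters' processing notes name Cell Ranger 8.0.1, Seurat 5.4.0, GRCm39 and mm39, and no gene annotation release is named in them or in the labels. Nor is it said whether intronic reads were counted, so nuclei counts may include priming inside introns.

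Barcodes with at least 500 UMIs, 300 genes and at most 20% (cells) or 5% (nuclei) mitochondrial UMIs were kept. The 8% of these with the highest doublet score were then removed from each library. Each library was clustered on its own with scanpy 1.11.5 and leidenalg 0.10.2 (2000 variable genes, 30 components, 15 neighbours, resolution 1). Clustering all libraries of a preparation together split the nuclei by library, so it was made an alternative after seeing the data, as were the naming limits: at least 3 markers at 2-fold, 20 barcodes, and a second class scoring at most 0.65 of the best. Unnamed barcodes entered no class. In KO-CFC they were 2610 nuclei with 13632076 of 31035215 kept UMIs, at a median of 4933 UMIs. WT-CFC had 4609 with 2814715 of 55908228 UMIs, at a median of 570. WT-naive had 1970 with 2649446 of 55678233 UMIs, at a median of 649. The comparisons with KO-CFC thus left out a larger share of its UMIs than of those of wild type. Unnamed cells numbered 4639 in CFC-14d and 2958 in Random-14d.

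Counts were summed per class. Intervals are exact at 95%, ratios add 0.5 counts, and a count of 0 allows up to 3 counts. A leading class was read over the libraries in which it was named, a change from the rule as first written, which asked for every library of the preparation. Members with at least 100 counts in a class of 1 library are given levels in the text or in a figure, Pcdh20 in a figure only. In each comparison up to 15 called members per direction are named. The members and lists were chosen with earlier results of these data known. The comparison code was tested on simulated data. Python 3.11.15, numpy 2.4.6, scipy 1.17.1, pandas 2.3.3 and matplotlib 3.10.9 were used.

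Alternatives were the filters, resolution, count limits, class limits, weighting and members among the variable genes, and, chosen after seeing the data, joint clustering and leaving out clusters that stood apart. The 15 motifs were searched on both strands. They were the ETS core AGGAAG and its longer form GAGGAAGT, which holds it, the TATA box TATAAA, the E-box CAGCTG and another E-box CAGGTG. For SOX factors the letters were ACAATG or the variant AACAAT. The CRE site TGACGTCA and its variant TGACGCA both hold the short CRE form TGACG. The rest were the AP-1 site TGANTCA, the SP or KLF site GGGCGGG, the MEF2 site TATTTTTA, a part of the REST site GGACAGC and the full NFI motif.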

Additional observations from a re-analysis of the deposited data

Results flagged for a closer look

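Several members were called in opposite directions in different classes of the same comparison. None of these differences between classes was tested, since each group had 1 library.

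In KO-CFC against WT-CFC, Cdh10 had a log2 ratio of 0.74 in neuroblast-like and -0.61 in astrocyte-like nuclei. Cdh4 had 2.68 in mossy-like and -0.71 in interneuron-like nuclei. Cdh8 had 1.73 in astrocyte-like and -0.95 in mossy-like nuclei; without 1 astrocyte-like cluster and 1 mossy-like cluster of KO-CFC these were -0.36 and -0.40, neither called. Without the same clusters, Cdh10 in astrocyte-like nuclei was -0.44, not called, and Cdh4 in mossy-like nuclei had too few counts for a value. Pcdh11x had 1.15 in granule-like and -0.89 in oligodendrocyte-like nuclei.

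In KO-CFC against WT-naive, Cdh10 had 0.76 in granule-like and -0.79 in oligodendrocyte-like nuclei, and Cdh20 0.73 in mossy-like and -0.84 in astrocyte-like nuclei. Cdh4 had 2.79 in mossy-like and -1.13 in astrocyte-like nuclei, and Cdh8 1.89 in astrocyte-like and -1.11 in mossy-like nuclei. Pcdh7 had 1.02 in granule-like and -0.76 in astrocyte-like nuclei, and Pcdh9 0.77 in neuroblast-like and -0.90 in mossy-like nuclei. Without those clusters, Cdh20 and Pcdh7 in astrocyte-like nuclei were -0.48 and -0.55, Cdh8 and Pcdh9 in mossy-like nuclei were -0.56 and -0.20, none called, and Cdh4 and Cdh20 in mossy-like and Cdh8 in astrocyte-like nuclei had too few counts for a value. Both comparisons share the library labelled KO-CFC.

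In WT-CFC against WT-naive, Cdh9 had 1.19 in neuroblast-like and -2.18 in oligodendrocyte-like nuclei, and Pcdh7 1.79 in microglia-like and -0.77 in oligodendrocyte-like nuclei. The -2.18 rests on 24 nuclei of WT-naive, which held 191 of the 224 Cdh9 counts; in the other oligodendrocyte-like cluster of WT-naive Cdh9 was at 38.4 CPM, beside 43.5 CPM in WT-CFC. Pcdh7 in oligodendrocyte-like nuclei was -0.59 without those 24 nuclei, still called.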

How the results depend on the processing

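No paired analysis was possible because each group had 1 library, and for the same reason no replicate could be left out. For the 110 called pairs, 1322 values were computed under the alternatives: 1186 kept direction and call, 122 kept direction and lost the call, and 14 reversed. Pairs that fell under the count limit gave no value. The cause of a change was not tested.

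The 6 calls of CFC-14d against Random-14d became 1 at resolution 2, 2 with the cadherins among the variable genes, 20 with barcodes weighted equally, 13 with libraries clustered together, 13 with at least 50 counts, 2 with at least 200 counts and 2 without 1 choroid plexus-like cluster. The 17 of WT-CFC against WT-naive became 29 with at least 50 counts. The 44 of KO-CFC against WT-naive became 27 without 4 nuclei clusters that stood apart, 1 mossy-like, 1 astrocyte-like and 1 oligodendrocyte-like of KO-CFC and 1 oligodendrocyte-like of WT-naive, chosen after seeing the data. Leading classes in cells numbered 3 at resolution 2, 3 at a 3-fold limit and 10 at 1.5-fold, and in nuclei 2 at 3-fold and 7 at 1.5-fold.

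Pcdh9 in choroid plexus-like cells reversed to -0.25 with cadherins among the variable genes and -0.14 without the cluster. Cdh11 in oligodendrocyte-like nuclei (KO-CFC against WT-CFC) reversed to 0.11 at resolution 2 and 0.15 with cadherins among the variable genes. With libraries clustered together, mossy-like Cdh18 and Cdh23 reversed to -0.15 and -1.08 against WT-CFC, and Cdh23 to -0.83 against WT-naive. Without the 4 clusters, Cdh8 and Cdh9 in astrocyte-like and Cdh23 in mossy-like nuclei reversed to -0.36, -0.21 and -1.0 against WT-CFC, and Cdh9 in astrocyte-like and Cdh10, Cdh22 and Cdh23 in mossy-like nuclei to -0.40, 0.14, -1.05 and -0.78 against WT-naive.

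The endothelial-like, pericyte-like and committed precursor-like classes held 27 to 55 nuclei in each nuclei library that had them, under the limit of 100 barcodes, and were not compared between groups.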

Other observations

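Some members were also seen in clusters outside the named classes. In KO-CFC an unnamed cluster of 84 nuclei, nearest to endothelial cells and led by haemoglobin genes, held Cdh5 at 156 CPM. An unnamed cluster of 985 nuclei in KO-CFC, led by ribosomal RNA-like transcripts and with a median of 558 UMIs, held Pcdh8 at 131 CPM. Within the Vgll3 and Cpne7 clusters of CA3 or CA2-like nuclei, Pcdh17 stood at 178 CPM in WT-naive and 137 CPM in WT-CFC, against 15.7 and 15.2 CPM in the largest clusters of the class, and Pcdh11x stood at 66.2 and 34.7 CPM against 3.04 and 4.27 CPM. These were chosen after their values were seen.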
